A study of Mus musculus with 14 samples.

Results

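The Cd300 genes encode small cell-surface receptors that carry 1 immunoglobulin-like domain outside the cell and sit mainly on myeloid cells, the branch of the immune system that includes microglia, macrophages, monocytes and neutrophils. They work as a paired family. Inhibitory members (Cd300a and Cd300lf) carry tyrosine motifs in their tails that recruit the phosphatases Ptpn6 and Ptpn11, whereas activating members (Cd300lb, Cd300ld and Cd300c2) signal through the adaptor proteins Tyrobp, Fcer1g or Hcst. Several bind lipids such as phosphatidylserine that dying cells expose, which places them among the receptors that tune the clearance of cell debris. Cd300lg, also called nepmucin, is the exception in being a glycoprotein of endothelial cells.

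The 6 genes followed, of 55335 in the files, were Cd300lf, Cd300a, Cd300c2, Cd300lb, Cd300ld and Cd300lg. They were found by symbol, and the family was selected on measured values, because Cd300lf had already been seen to differ between Clec7a-KO and nTg microglia in these libraries. Values of that comparison are therefore given for all members as a description with no test, and the same holds for Cd300lf in the comparisons of SOD1G93A/Clec7a-KO with Clec7a-KO and of SOD1G93A with nTg, which reuse the libraries of one side of it.

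The data were single-cell RNA profiles of whole mouse spinal cords at an age of P115-120 days, in 14 libraries of 4 groups. SOD1G93A (3 libraries, strain B6SJL-Tg(SOD1*G93A)1Gur/J) carried a mutant human SOD1 transgene driven by its own promoter and is a model of amyotrophic lateral sclerosis. Clec7a-KO (4 libraries, strain B6.129S6-Clec7atm1Gdb/J) lacked, in all its cells, the lectin receptor gene Clec7a. SOD1G93A/Clec7a-KO (4 libraries) had both alterations, nTg (3 libraries) is labelled as having neither, and for both of these the strain field repeats only the genotype. The strain labels thus differ between the groups along with the genotype, so that genotype and strain cannot be told apart in the comparisons below. Dissociation was done per spinal cord, and the labels do not say whether a library held 1 mouse, so the p-values measure the spread between libraries. Libraries are written as group and replicate, such as Clec7a-KO_1.

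The files held 108892 barcodes with 28819852 to 141204910 unique molecular identifiers (UMIs, counts of single captured RNA molecules) per library. Filtering kept 89225 cells, of which 51950 were microglia-like, 11843 endothelial-like, 383 like border-associated macrophages (the macrophages of the meninges and vessel walls), 116 neutrophil-like and 56 monocyte-like. Class names below stand for such rebuilt, "-like" classes. Of the defining markers, 11 of 12 were highest in microglia among all classes (Sall1 was not), 8 of 8 in border-associated macrophages, 8 of 8 in neutrophils, 8 of 8 in endothelial cells, but only 4 of 7 in monocytes. Clec7a had 33 to 240 UMIs in the libraries labelled as lacking it, against 755 to 1767 in nTg and 57449 to 101134 in SOD1G93A. By Xist and Ddx3y, genes of female and male cells, 0 of 3 SOD1G93A, 1 of 4 SOD1G93A/Clec7a-KO, 2 of 3 nTg and 1 of 4 Clec7a-KO libraries were female, so that sex was not balanced between the groups. With sex as a covariate the same members were called in microglia in each contrast tested below, while the genes called in microglia for SOD1G93A against nTg went from 5455 to 3668. Between any pair of libraries, 2 to 44 cell barcodes were shared, at most 0.474% of the smaller library.

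All members lie on mouse chromosome 11 (GRCm38, GENCODE annotation) and are annotated as protein coding. Cd300lf (ENSMUSG00000047798.15) spans 115116214 to 115133992 on the minus strand, and Cd300a (ENSMUSG00000034652.12) spans 114890041 to 114904654 on the plus strand. Between them, on the minus strand, lie Cd300lb (ENSMUSG00000063193.9) at 114922781 to 114934386, Cd300ld (ENSMUSG00000034641.2) at 114982274 to 114989922 and Cd300c2 (ENSMUSG00000044811.13) at 114996721 to 115001880. Cd300lg (ENSMUSG00000017309.11) lies apart from this cluster, at 102041509 to 102055620 on the plus strand.

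Promoter sequences are shown for 3 members: for Cd300lf, whose level differed most between Clec7a-KO and nTg microglia, and for Cd300lb and Cd300ld, which rose together in the transgenic groups. Each covers 250 bases before to 50 bases after the annotated start, 5′ to 3′ on the gene's own strand, from RefSeq on GRCm38.p6 (chr11:115133943-115134242, chr11:114934322-114934621 and chr11:114989837-114990136, all minus strand). Capitals mark GAGGAA on either strand, the PU-box core recognised by the myeloid factor PU.1.
Cd300lf: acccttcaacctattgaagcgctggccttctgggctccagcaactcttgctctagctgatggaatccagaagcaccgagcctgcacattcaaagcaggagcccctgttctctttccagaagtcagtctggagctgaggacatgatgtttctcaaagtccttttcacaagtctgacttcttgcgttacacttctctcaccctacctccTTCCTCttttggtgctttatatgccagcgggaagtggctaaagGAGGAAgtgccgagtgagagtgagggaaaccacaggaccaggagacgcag
Cd300lb: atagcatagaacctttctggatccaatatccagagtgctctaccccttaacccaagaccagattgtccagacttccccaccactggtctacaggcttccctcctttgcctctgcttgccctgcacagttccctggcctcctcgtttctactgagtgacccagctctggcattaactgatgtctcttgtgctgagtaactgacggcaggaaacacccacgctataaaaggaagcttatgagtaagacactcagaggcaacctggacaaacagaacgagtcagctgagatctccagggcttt
Cd300ld: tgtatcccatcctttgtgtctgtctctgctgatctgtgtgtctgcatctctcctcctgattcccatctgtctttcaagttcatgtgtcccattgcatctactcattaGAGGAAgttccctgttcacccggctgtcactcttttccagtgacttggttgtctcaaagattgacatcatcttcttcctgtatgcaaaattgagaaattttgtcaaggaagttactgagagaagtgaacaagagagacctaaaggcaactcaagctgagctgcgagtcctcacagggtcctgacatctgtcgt

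The hexamer occurred 2 times in the Cd300lf window, once in each orientation, 1 time in that of Cd300ld, 1 time each in those of Cd300a and Cd300c2, and 0 times in that of Cd300lb. It occurred in 9289 of 32851 RefSeq promoters of the same length (28.3%), and a match describes these letters only.

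Cd300lf, an inhibitory receptor, was lowest in Clec7a-KO microglia, below every library of the other 3 groups. In CPM, the gene's UMIs as a share of all microglial UMIs of the library on the usual per-million scale, scaled between libraries by the trimmed mean of M values (TMM), it read 36.0, 34.8 and 32.4 in the 3 nTg libraries. The 4 Clec7a-KO libraries read 2.56, 2.49, 1.56 and 2.21. No library of one group reached the other, and the means were 34.4 ± 1.83 (SD, n = 3) and 2.21 ± 0.457 (n = 4), a log2 fold change of -3.94 (SE 0.35). This contrast chose the gene, so the value is a description. Across all genes, edgeR's quasi-likelihood test with Benjamini-Hochberg adjustment called 5 of 16698 genes (0.0299%) at an adjusted p under 0.05, and 3.7% of genes had groups that did not overlap. The other 4 members tested in microglia had overlapping libraries in these groups, with log2 fold changes of -0.06 for Cd300c2, -0.14 for Cd300a, -0.29 for Cd300lb and -0.33 for Cd300ld.

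The low level was not seen in the groups with the transgene. The SOD1G93A/Clec7a-KO libraries, which also lack Clec7a, read 29.2, 30.8, 25.3 and 33.9 TMM-scaled CPM of Cd300lf. Every one of them lay above every Clec7a-KO library, with a log2 fold change of 3.73 (SE 0.34, described and not tested). The 3 SOD1G93A libraries read 17.6, 62.9 and 63.7, so that 1 library lay below all SOD1G93A/Clec7a-KO libraries and the other two above them. Between SOD1G93A and nTg the log2 fold change of Cd300lf was 0.48 (SE 0.33, described and not tested, groups overlapping), and by library totals without TMM it was 0.0115. Cd300lf did not pass the test between SOD1G93A/Clec7a-KO and SOD1G93A (-0.69, SE 0.31, adjusted p 0.437), a contrast in which 3 genes (0.018%) were called in all.

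These values turned on SOD1G93A_1. Without it, the log2 fold change of Cd300lf between SOD1G93A/Clec7a-KO and SOD1G93A was -1.10, in a fit that called 13 of 17033 genes in that contrast. The library was singled out by its own low Cd300lf value, and leaving it out widens the difference. The value is thus a description with no test. The value for SOD1G93A against nTg became 0.82. The low value of SOD1G93A_1 was found in each of the 6 microglial clusters with at least 20 cells in all 3 SOD1G93A libraries, at 12.1 to 21.4 CPM of the cluster against 40.8 to 65.2 in the others. Of the other members, SOD1G93A_1 was also lowest of its group for Cd300ld (8.79 TMM-scaled CPM against 12.2 and 12.01). It was highest for Cd300c2 (725) and in the middle for Cd300lb (17.4) and Cd300a (81.8). Its microglia were shallower, with a median of 8846 UMIs against 18860 and 21800, and the part of depth in the difference was not tested.

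**Figure D1:**
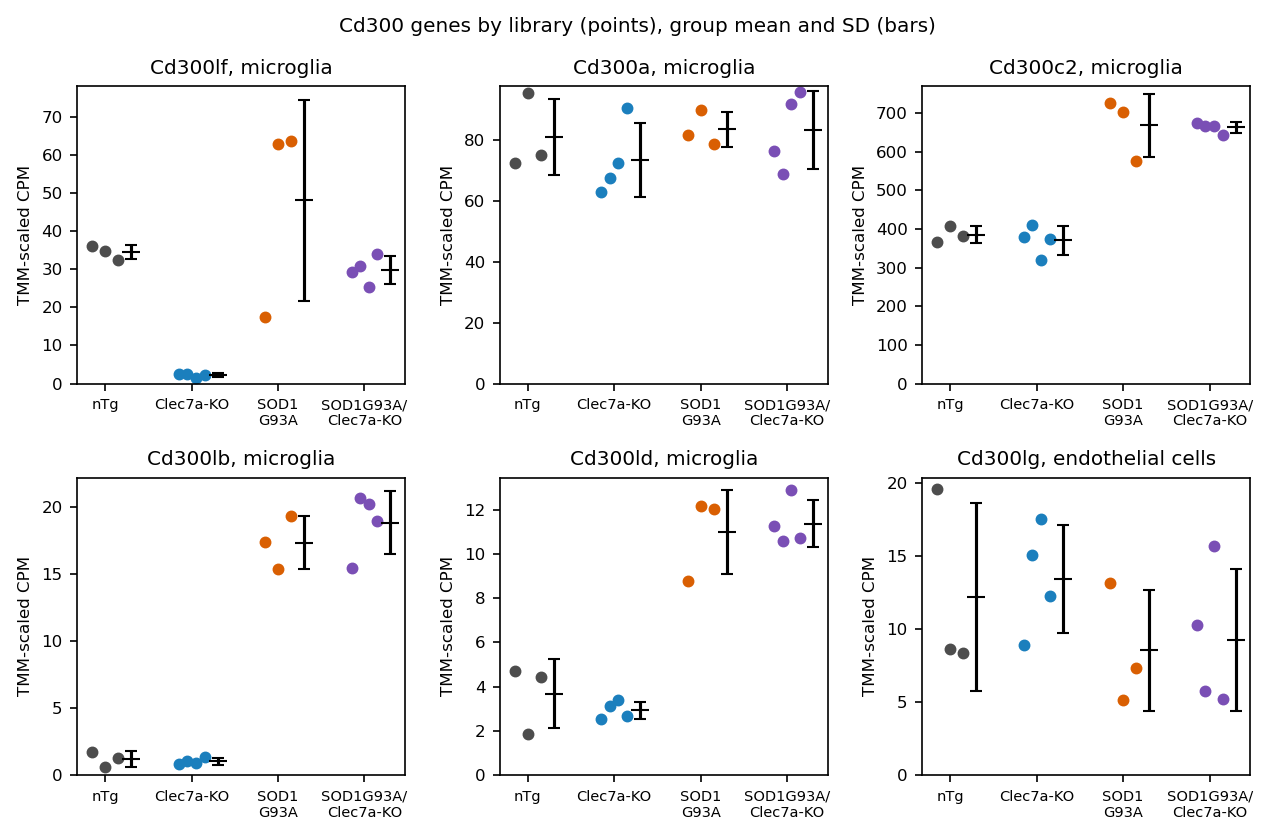
TMM-scaled CPM (vertical axes, linear, from 0) of 5 Cd300 genes in microglia and of Cd300lg in endothelial cells, 1 point per library in the 4 groups, with bars for the group mean and SD. Cd300lf sits at 1.56 to 2.56 in Clec7a-KO and at 17.6 or above in every other library, while Cd300c2, Cd300lb and Cd300ld separate the groups with the transgene from those without it.

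Shares of positive cells followed the same order. With each cell thinned to 3000 UMIs, 14.2%, 10.9% and 9.84% of nTg microglia had a Cd300lf UMI, against 0.757%, 0.777%, 0.485% and 0.530% in Clec7a-KO. The shallower cells left out numbered 77 to 372 per nTg library and 191 to 455 per Clec7a-KO library. Unthinned and pooled, the shares were 28.3% (1695 of 5996 cells, exact binomial interval 27.1% to 29.4%, median 8661.5 UMIs) and 1.84% (177 of 9632 cells, 1.58% to 2.13%, median 7106.5 UMIs). In astrocytes the share was 0.267% in nTg (median 5527.5 UMIs) and 0.0447% in Clec7a-KO (median 4405.5 UMIs). Their mean level was 0.472 CPM of the class in nTg, 0.0435 in Clec7a-KO, 1.19 in SOD1G93A and 3.60 in SOD1G93A/Clec7a-KO. Whether astrocytes make this receptor was not tested. Clec7a-KO microglia were thus low but above the astrocytes of their own group. All such intervals cover counting error only.

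The low level in Clec7a-KO held in the microglial clusters that make up nearly all of this group. Clusters 8 (led by P2ry12, Tmem119 and Crybb1, genes of resting microglia), 24 (led by Xist and P2ry12) and 11 (shallow cells with oligodendrocyte genes) held 97% to 99.1% of the microglia of each library without the transgene and 0.132% to 1.79% of each library with it. In cluster 8 the pooled level was 41.7 CPM of the cluster in nTg and 2.62 in Clec7a-KO, and in cluster 24 it was 44.8 and 2.17. Cluster 24 was led by a gene of female cells, and these groups differed in sex. Cluster 8 held 2091 nTg cells, and nTg_2, the only male nTg library, had 2246 microglia. Cluster 24 held 1193 Clec7a-KO cells, and Clec7a-KO_3, the only female library of that group, had 1452 microglia. The pooled values of 41.7 and 2.17 may thus rest largely on a single library each. In the transgenic groups most microglia lay in clusters 0 (led by Il12b, Acod1 and Cxcl2), 2 (Gpnmb and Spp1), 3 (Ccl12, Cxcl10 and Il1b) and 4 (Rgs2 and C1qa), where SOD1G93A read 38.3 to 51.6 and SOD1G93A/Clec7a-KO 19.6 to 28.1. The few Clec7a-KO cells in these clusters read 4.23 in cluster 0 (38 cells), 2.36 in cluster 2 (24 cells) and 0 in cluster 4 (21 cells), and 20.4 in cluster 3.

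That last value rested on very few cells. Cluster 3 held 69 Clec7a-KO cells with 18 Cd300lf UMIs, of which 14 were in 15 cells of Clec7a-KO_1 and 9 of these in a single cell. The other libraries gave 1, 0 and 3 UMIs in 21, 5 and 28 cells. Neutrophil markers had 1 UMI in those 15 cells. Without cluster 3, Cd300lf in Clec7a-KO microglia was 1.9 to 2.97 CPM of the class per library, against 1.89 to 3.11 with it.

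**Figure D2:**
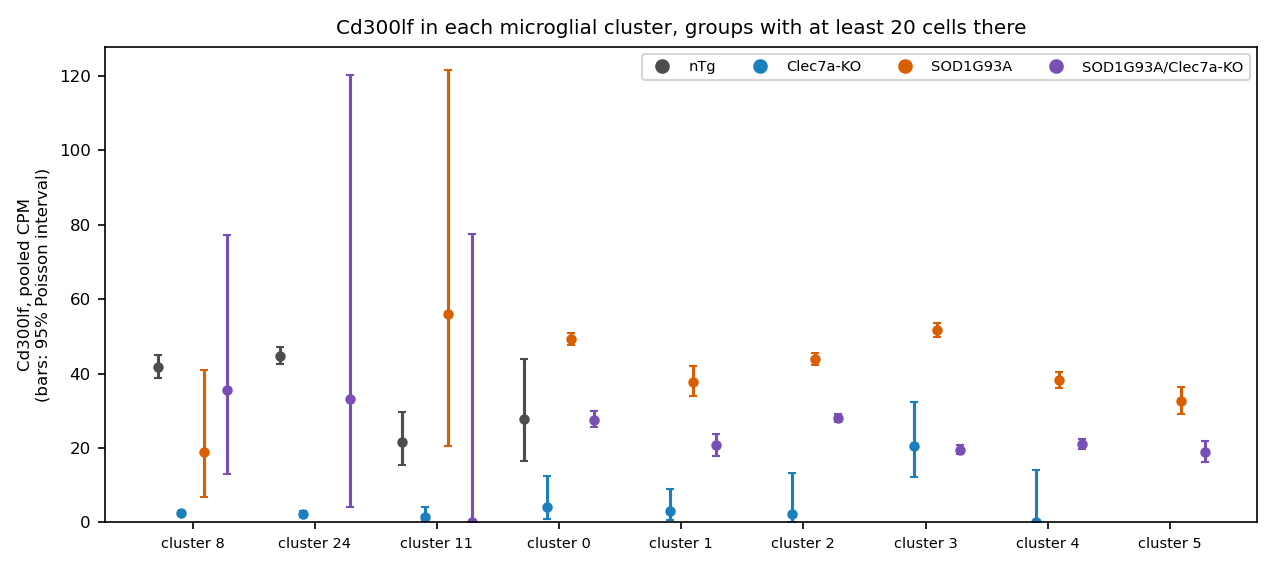
Pooled CPM of Cd300lf (vertical axis, linear) in each microglial cluster (horizontal axis), 1 point per group with at least 20 cells there and bars for the 95% Poisson interval. Clec7a-KO lies at 0 to 4.23 in all clusters shown except cluster 3, where it reads 20.4.

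Neutrophils of Clec7a-KO cords did carry Cd300lf. Only 2 libraries had at least 20 neutrophils, both of the Clec7a-KO group, and their neutrophils read 254 (26 cells) and 274 (54 cells) CPM of the class. The microglia of the same libraries read 3.11 and 2.97, so that the level in neutrophils was 81.6 and 92.2 times that in microglia of the same library. Ratios of this size were not particular to Cd300lf: they were 120.1 and 75.29 for Cd300lb and 61.24 and 91.67 for Cd300ld. For Cd300a they were 2.035 and 2.344, and for Cd300c2 0.533 and 0.343. Pooled over the group, 131 Cd300lf UMIs gave 265 CPM (95% Poisson interval 222 to 315), and 60 of 82 cells had such a UMI (73.2%). The neutrophils of Clec7a-KO_1 and Clec7a-KO_2 held microglia markers at 6530 and 988 CPM in sum, against 34160 and 30960 in microglia. The other groups had too few neutrophils for a comparison: pooled levels were 107 CPM in nTg (8 cells, 5 UMIs, interval 34.9 to 251), 349 in SOD1G93A (8 cells, 6 UMIs, 128 to 760) and 236 in SOD1G93A/Clec7a-KO (18 cells, 10 UMIs, 113 to 434). Whether neutrophils of Clec7a-KO and nTg differ was not detectable at this depth.

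Border-associated macrophages showed few Cd300lf UMIs in both groups that lack Clec7a. In SOD1G93A the 3 libraries held 1, 12 and 12 UMIs (27, 54 and 34 cells, pooled 31.7 CPM, 95% Poisson interval 20.5 to 46.9), and in nTg 9, 1 and 0 (62 cells, 21.1 CPM, 10.1 to 38.9). In SOD1G93A/Clec7a-KO there were 0 UMIs in all 4 libraries (99 cells, 441869 UMIs in all), and in Clec7a-KO 1 UMI in all, from Clec7a-KO_2 (107 cells, 1.61 CPM, 0.0407 to 8.96). A count of 0 allows 3 UMIs over the pooled group, or 6.79 CPM. The libraries of SOD1G93A/Clec7a-KO and SOD1G93A did not overlap for Cd300lf. The gene did not pass the filter on low counts in this class. It is thus not among the 2570 genes that did, of which 5.8% did not overlap. A two-sided exact permutation test over libraries gave p = 0.0571. That is the smallest p that 4 against 3 allows, so the test could not reach 0.05. This pair was chosen after its values were seen, and its lack of overlap rests on the 1 UMI of SOD1G93A_1. The 12 microglia markers summed to 12870 to 14450 CPM in these macrophages in nTg, 12870 to 14090 in Clec7a-KO, 14890 to 18440 in SOD1G93A and 13460 to 24080 in SOD1G93A/Clec7a-KO. They summed to 28240 to 37880 in microglia, and their part in the Cd300lf counts was not tested. In microglia of the same 2 groups the libraries did overlap, as given above.

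**Figure D3:**
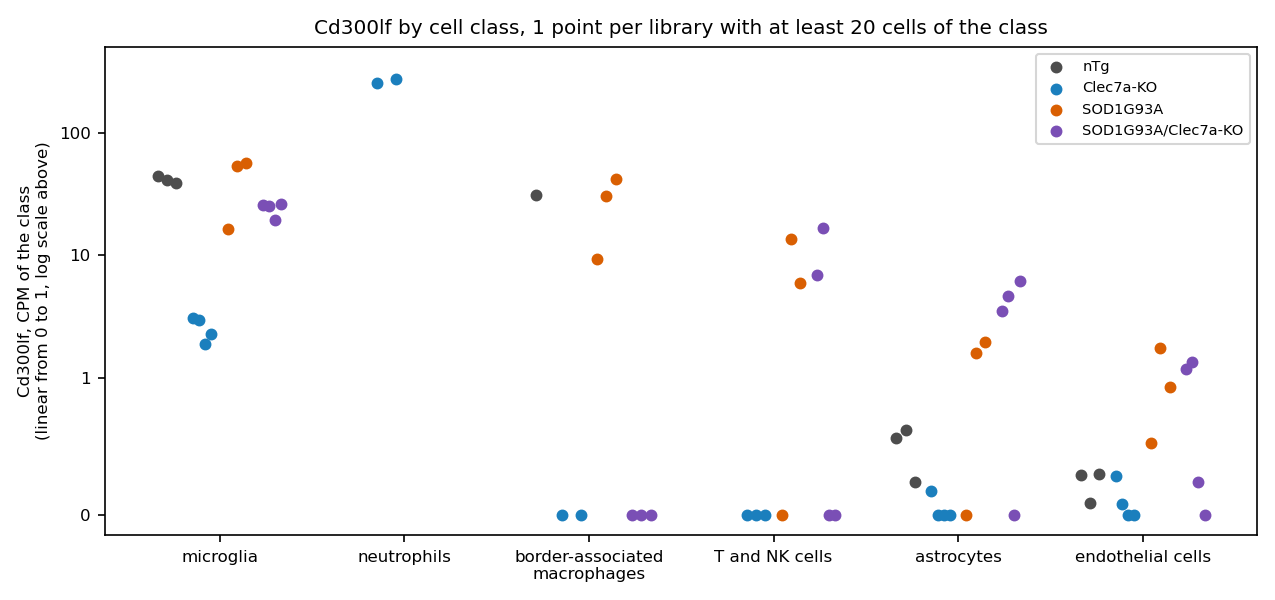
Cd300lf in CPM of each class (vertical axis, linear from 0 to 1 and log above) in 6 cell classes, 1 point per library with at least 20 cells of the class, coloured by group. Neutrophils of 2 Clec7a-KO libraries read 254 and 274 while the microglia of that group read 1.89 to 3.11, and border-associated macrophages of SOD1G93A/Clec7a-KO read 0.

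Cd300a, the other inhibitory member, differed between groups by less than the spread of its libraries in microglia. It read 72.6, 95.5 and 75.0 TMM-scaled CPM in nTg, 63.0, 67.7, 72.4 and 90.5 in Clec7a-KO, 81.8, 90.1 and 78.7 in SOD1G93A, and 76.5, 68.9, 91.9 and 95.9 in SOD1G93A/Clec7a-KO. All groups overlapped. The log2 fold changes were 0.04 between SOD1G93A and nTg (95% interval -0.32 to 0.41, edgeR adjusted p 0.868), 0.18 between SOD1G93A/Clec7a-KO and Clec7a-KO (-0.13 to 0.50, adjusted p 0.321) and -0.00415 between SOD1G93A/Clec7a-KO and SOD1G93A (-0.34 to 0.33, adjusted p 0.993). These values depend on the scaling: with library totals in place of TMM the median gene itself fell by 0.44 and 0.51 on the log2 scale in the first 2 contrasts, and Cd300a was then called lower (-0.40, adjusted p 0.0328, and -0.33, adjusted p 0.0323), close to that median.

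Cd300c2, an activating receptor, had the highest counts of the family in microglia and rose with the transgene. It read 366, 408 and 381 TMM-scaled CPM in nTg and 725, 702 and 576 in SOD1G93A. It read 380, 409, 319 and 374 in Clec7a-KO and 675, 667, 667 and 643 in SOD1G93A/Clec7a-KO. The groups with and without the transgene did not overlap in either pair. By edgeR the difference was 0.79 on the log2 scale (SE 0.15, adjusted p 0.000895) for SOD1G93A against nTg and 0.84 (SE 0.13, adjusted p 0.000107) for SOD1G93A/Clec7a-KO against Clec7a-KO, 2 contrasts that share no library. By library totals they were 0.35 (adjusted p 0.0751, past the threshold no longer) and 0.32 (adjusted p 0.0467).

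Cd300lb, which signals through Tyrobp, showed the largest change of the family with the transgene. Its level was 1.71, 0.57 and 1.29 TMM-scaled CPM in nTg and 17.4, 15.4 and 19.3 in SOD1G93A, which was 3.82 higher on the log2 scale (SE 0.29, adjusted p 7.88e-07 by edgeR). In Clec7a-KO it was 0.79, 1.07, 0.87 and 1.37, and in SOD1G93A/Clec7a-KO 15.5, 20.7, 20.2 and 18.9, which was 4.23 higher (SE 0.26, adjusted p 4.9e-08). No library with the transgene overlapped one without it. By library totals the values were 3.37 and 3.71, both still called.

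Cd300ld, an activating receptor that pairs with Fcer1g, followed with a smaller change. It read 4.70, 1.87 and 4.42 TMM-scaled CPM in nTg, and 8.79, 12.2 and 12.01 in SOD1G93A (1.58 higher on the log2 scale, SE 0.26, adjusted p 0.000459 by edgeR). It read 2.53, 3.13, 3.37 and 2.67 in Clec7a-KO, and 11.3, 10.6, 12.9 and 10.7 in SOD1G93A/Clec7a-KO (1.96, SE 0.23, adjusted p 1.54e-05). The groups with and without the transgene did not overlap in either pair, and by library totals the changes were 1.12 and 1.43, both still called.

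In all, 3 of the 4 members tested for SOD1G93A against nTg (Cd300lf is only described there) were called, all 3 higher, where 32.7% of the 16698 genes were called in either direction and 19.6% higher. For SOD1G93A/Clec7a-KO against Clec7a-KO, 3 of the 4 members tested were called, the same 3 genes and all higher, where 46.4% of genes were called and 25.5% higher. Groups did not overlap for 53.7% and 36.4% of all genes in these contrasts. The microglia compared here sit in different clusters: 8, 24 and 11 in groups without the transgene, and mostly 0, 2, 3 and 4 in groups with it. None of the 5 members was called between SOD1G93A/Clec7a-KO and SOD1G93A, where 3 genes passed by edgeR and 1901 had an unadjusted p under 0.05. For the activating members the log2 fold changes of that contrast were -0.01 for Cd300c2 (95% interval -0.30 to 0.28), 0.12 for Cd300lb (-0.36 to 0.60) and 0.05 for Cd300ld (-0.45 to 0.55).

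**Figure D4:**
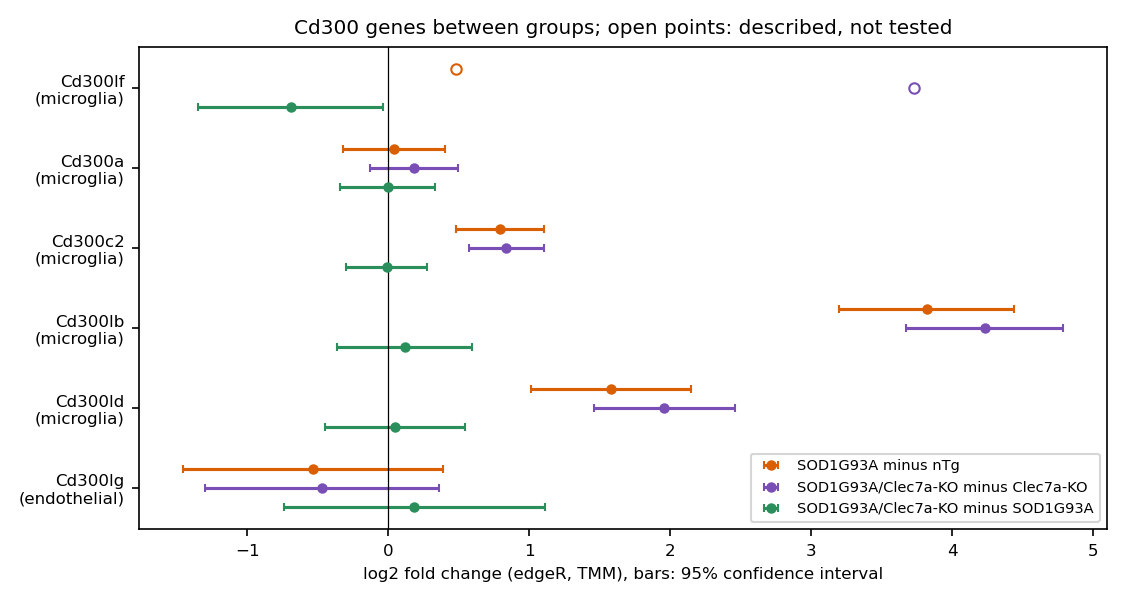
Log2 fold changes (horizontal axis) of the 6 members in 3 contrasts, with bars for the 95% confidence interval of edgeR's fit. Cd300c2, Cd300lb and Cd300ld lie above 0 in both contrasts of transgene against none and straddle 0 in SOD1G93A/Clec7a-KO minus SOD1G93A, and the open points of Cd300lf are described only.

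The activating members also differed by cluster within the transgenic microglia. In SOD1G93A, pooled Cd300lb was 22.2 CPM of the cluster in cluster 2, led by Gpnmb and Spp1, and 9.38 in cluster 3, led by Ccl12 and Cxcl10, and in SOD1G93A/Clec7a-KO 20.4 and 11.2. Cd300ld read 14.3 and 6.02 in these clusters in SOD1G93A, and 12.9 and 6.56 in SOD1G93A/Clec7a-KO. Cd300c2 was ordered the other way, at 538 and 651 in SOD1G93A and 536 and 577 in SOD1G93A/Clec7a-KO. In other clusters of SOD1G93A Cd300c2 read 382 (cluster 1) and 724 (cluster 5). Since the clusters were made from the expression of these same cells, the differences are descriptions.

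Across cell classes the members fell into 3 patterns, given as mean ± SD of the CPM of the class over libraries with at least 20 cells of it. The groups were not balanced between classes. Microglia came from all 14 libraries, neutrophils from 2 libraries of Clec7a-KO only, and border-associated macrophages from 9, with 1 of nTg. Within Clec7a-KO alone, microglia read 2.56 for Cd300lf, 1.18 for Cd300lb and 3.41 for Cd300ld, with neutrophils still higher. Microglia led for Cd300c2 only, at 505 ± 80.4 (n = 14), followed by border-associated macrophages at 337 ± 138 (n = 9) and neutrophils at 206 ± 55.8 (n = 2), and the spreads of neighbouring classes overlapped. Neutrophils led for Cd300ld (265 ± 109), followed by border-associated macrophages (99.2 ± 21.3) and microglia (6.65 ± 3.11). Neutrophils led also for Cd300lb (105 ± 13.4) and for Cd300lf (264 ± 13.9). For Cd300lb border-associated macrophages held few UMIs, and pooled by group they lay above microglia without the transgene. They read 10.6 CPM in nTg (5 UMIs, 95% Poisson interval 3.43 to 24.7) and 24.1 in Clec7a-KO (15 UMIs, 13.5 to 39.8), against 1.57 (1.25 to 1.95) and 1.14 (0.919 to 1.41) in microglia. In SOD1G93A they read 2.54 pooled (2 UMIs, 0.308 to 9.17), against 15.3 in microglia (14.8 to 15.8). By library, however, these macrophages ranged from 0 to 18.57 there and microglia from 13.15 to 17.08, so the classes overlapped. In SOD1G93A/Clec7a-KO they read 6.79 (3 UMIs, 1.40 to 19.8), an interval that holds the 15.2 of microglia. Cd300a differed less between classes, at 172 ± 23.4 in neutrophils, 121 ± 34.9 in border-associated macrophages and 80.4 ± 14.1 in microglia. In border-associated macrophages none of Cd300a, Cd300c2 and Cd300ld was called between groups (edgeR adjusted p 0.867 to 0.998 over the 3 tested contrasts). Of the 2570 genes tested in that class, 0.233% were called for SOD1G93A against nTg, 0.0389% for SOD1G93A/Clec7a-KO against SOD1G93A and 0.0778% for SOD1G93A/Clec7a-KO against Clec7a-KO.

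Cd300lg was counted in endothelial cells, in a class left unnamed and in a few monocytes. The unnamed class (3815 cells, mostly in 2 clusters with endothelial markers led by mural genes such as Vtn and Rgs5) read 7.36 ± 3.54 CPM of the class (n = 14), against 10.9 ± 4.67 in endothelial cells. In endothelial cells it read 19.6, 8.63 and 8.38 TMM-scaled CPM in nTg, 8.92, 15.1, 17.6 and 12.3 in Clec7a-KO, 13.2, 5.12 and 7.36 in SOD1G93A, and 10.3, 5.78, 15.7 and 5.24 in SOD1G93A/Clec7a-KO. All groups overlapped. The log2 fold change was -0.53 for SOD1G93A against nTg (95% interval -1.46 to 0.39, edgeR adjusted p 0.999), -0.47 for SOD1G93A/Clec7a-KO against Clec7a-KO (-1.30 to 0.36, adjusted p 0.688) and 0.19 for SOD1G93A/Clec7a-KO against SOD1G93A (-0.74 to 1.11, adjusted p 0.916). Endothelial cells had few called genes in these contrasts (1.03%, 0.864% and 0.00745% of 13431). In microglia Cd300lg was at 0 to 0.47 TMM-scaled CPM and did not pass the filter on low counts.

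A small number of monocytes also held Cd300lg. Pooled over the groups, 21 Cd300lg UMIs in 56 monocytes gave 44.5 CPM (95% Poisson interval 27.6 to 68.1), against 11.9 (11.2 to 12.6) in endothelial cells. The UMIs came from 13 cells in 9 libraries: 8 cells in Clec7a-KO (29 monocytes), 3 in SOD1G93A (14), 1 in SOD1G93A/Clec7a-KO (10) and 1 in nTg (3). The 8 endothelial markers summed to 97.5 CPM in all monocytes, 135 in those 13 cells, 131 in microglia and 21290 in endothelial cells. Monocytes were too few for a comparison of groups, and only 4 of 7 markers of that class were highest in it. Border-associated macrophages held 7 Cd300lg UMIs, all in 2 cells.

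Low levels of the microglial members were also counted in endothelial cells. Cd300c2 read 2.33, 1.78 and 1.03 TMM-scaled CPM there in nTg and 33.5, 21.3 and 10.8 in SOD1G93A (3.60 higher on the log2 scale, SE 0.58, adjusted p 0.00512 by edgeR). It did not pass for SOD1G93A/Clec7a-KO against Clec7a-KO (adjusted p 0.0563). Cd300a had 0.29 to 0.36 in nTg and 1.80 to 3.78 in SOD1G93A, given with no test: it passed the filter on low counts (1.49 CPM in this class) through 5 libraries with the transgene and 0 without. In the same cells the 12 microglia markers summed to 107.5 to 178.6 CPM in nTg, 156.5 to 580.8 in Clec7a-KO, 604.4 to 1615 in SOD1G93A and 524.7 to 1637 in SOD1G93A/Clec7a-KO, with none of the 12 at 0 in any library. In microglia they summed to 28240 to 37880. Their part in the endothelial counts of Cd300c2 and Cd300a was not tested.

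Of 10 proteins through which these receptors signal, 4 were higher and 2 lower in SOD1G93A than in nTg microglia (60% called, against 32.7% of all genes, median log2 fold change 0.32, against 0.006). In SOD1G93A/Clec7a-KO against Clec7a-KO, 5 were higher and 2 lower (70% called, against 46.4%, median 0.40, against 0.005). The adaptors of the activating receptors rose in both contrasts: Tyrobp by 1.52 and 1.88 on the log2 scale, Hcst by 1.32 and 1.87, and Fcer1g by 1.04 and 1.39. Pik3r1, a regulatory subunit of PI3 kinase, fell, with log2 fold changes of -0.65 and -1.09. By library totals the counts were 3 higher and 3 lower, then 3 higher and 4 lower, where 7293 and 9720 of 16698 genes were called. The medians of the list were then -0.12 and -0.11, against -0.44 and -0.51 for all genes. Of 10 other Cd300 genes and structural relatives, 2 passed the filter on low counts (Cd300c and Cd300ld3). Cd300ld3 passed both with and without the transgene and was not called. Cd300c passed through the libraries without the transgene only (5, against 1 with it) and is not counted.

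Of 11 other receptors for phosphatidylserine and lipids, 8 passed the filter on low counts, 7 of them both with and without the transgene. Stab2 passed through the libraries without the transgene only and is not counted. Of the 7, 3 were higher in SOD1G93A than in nTg and 0 lower, where 32.7% of all genes were called. The 3 were Axl (log2 fold change 3.91), the scavenger receptor Cd36 (3.08) and Trem2 (1.34). The median of the 8 tested, Stab2 included, was -0.18. In SOD1G93A/Clec7a-KO against Clec7a-KO the same 3 of the 7 were higher (3.89, 2.06 and 1.30) and 2 were lower, Adgrb1 (-1.48) and Mertk (-0.61). In this contrast 46.4% of all genes were called, and the median of the 8 was -0.28. By library totals, over all 8, 3 were higher and 4 lower in each of these contrasts, where 7293 and 9720 of 16698 genes were called. The medians of the 8 were then -0.62 and -0.78, against -0.44 and -0.51 for all genes. Of 20 other paired receptors of myeloid cells, 19 passed the filter on low counts (0.366 CPM in microglia, reached in at least 3 libraries), 15 of them both with and without the transgene. Of these 15, 8 were higher and 3 lower in SOD1G93A than in nTg, where 32.7% of all genes were called, led by Cd200r4 (5.33), Lilr4b (3.96) and Clec12a (3.53). In SOD1G93A/Clec7a-KO against Clec7a-KO 9 were higher and 4 lower, where 46.4% of all genes were called, led by Cd200r4 (5.01), Lilr4b (3.94) and Cd22 (3.90). The other 4 passed through one side only, which selects for a difference, so they are not counted: Siglec1, Pilrb1 and Trem1 through the libraries with the transgene, and Siglecg through those without it. Siglec1, a sialic acid receptor of macrophages, read 0.223 TMM-scaled CPM in nTg, 0.137 in Clec7a-KO and 7.78 in SOD1G93A. None of the tested genes of these lists was called between SOD1G93A/Clec7a-KO and SOD1G93A.

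The 3 genes whose microglial level followed each member most closely over the 14 libraries, among 9512 genes with a mean of at least 5 CPM, were found by Pearson's r of log2 CPM and are given with no test, since the libraries share their group differences and depth. For Cd300lf they were Arl16 (0.84), Hist1h4i (0.82) and Pianp (0.81). Pianp read 14.1 TMM-scaled CPM in nTg, 1.75 in Clec7a-KO, 60.2 in SOD1G93A and 67.6 in SOD1G93A/Clec7a-KO, and Cd300lf itself correlated at 0.40 to 0.65 with the other members. For Cd300a they were Ptgr2 (0.91), Slc35a1 (0.89) and Mgat2 (0.87). The transgene-raised members had closer matches: Ctsz, Fuca1 and 9930022D16Rik for Cd300c2 (0.98 each), Psat1, Igf1 and Fblim1 for Cd300lb (0.99 each), and Apoc1 (0.99), Cd44 (0.97) and Fgf13 (0.97) for Cd300ld. Cd300lb and Cd300ld correlated at 0.97 with each other and at 0.94 and 0.88 with Cd300c2. Ctsz, a lysosomal cathepsin, rose from 1187 CPM in nTg to 4276 in SOD1G93A, and Igf1, a growth factor, from 2.51 to 432.

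No other tested gene around the cluster was as far below its nTg level in Clec7a-KO microglia as Cd300lf. Of 47 other tested genes within 1000 kb, edgeR called 0 between Clec7a-KO and nTg, where 0.0299% of all genes were called. At an unadjusted p under 0.05 there were 4 (8.51%, against 2.61% of all genes), of which Rab37 and Gm11698 (-1.16) were lower and Nup85 (0.58) and Wbp2 (0.34) higher. The median log2 fold change of the 47 was 0.11, in a range from -1.72 to 1.51, and since Cd300lf was chosen on this contrast nothing is read from these counts. The lowest was Rab37, at 0.928 TMM-scaled CPM in nTg and 0.284 in Clec7a-KO, which lies on the plus strand at 115091431 to 115162236 and spans Cd300lf. The sources used here do not say that counting used strand, so reads of these 2 genes may not be told apart. Of the genes outside the cluster, Slc9a3r1, the nearest tested on one side, read 40.7 and 57.1, and Btbd17, on the other side, 3.03 and 2.77. Ict1os (1.51) and Cd300ld3 (-1.24) had the next largest values. Around Cd300lg, 0 of 62 tested genes were called and 2 (3.23%) had an unadjusted p under 0.05. The nearest tested genes were Mpp2 (-0.67) and Dusp3 (0.35), and the largest value was that of BC030867 (1.95).

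**Figure D5:**
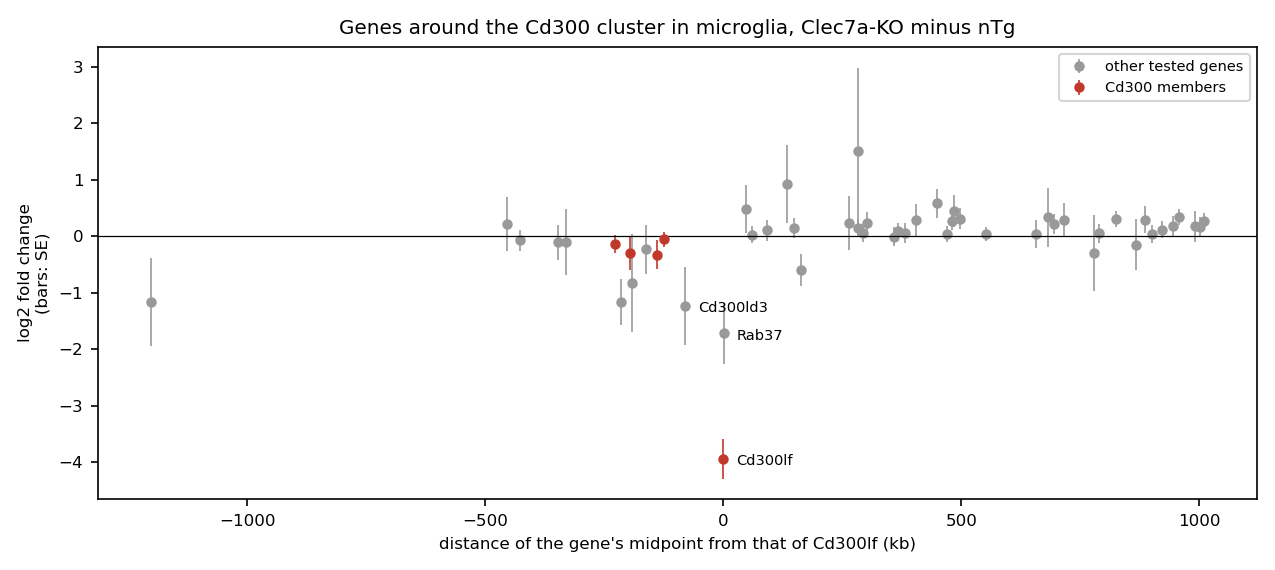
Log2 fold change of Clec7a-KO minus nTg in microglia (vertical axis, bars for the SE) for the 5 clustered members and the 47 other tested genes within 1000 kb, by distance of the gene's midpoint from that of Cd300lf in kb (horizontal axis). Cd300lf lies at -3.94, Rab37, which overlaps it, at -1.72, and the other 4 members between -0.33 and -0.06.

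Some 3′ sequence was shared between genes. Of the 50-base stretches in the last 500 bases of the annotated transcripts, 7.68% (121 of 1576, from 7 transcripts) of those of Cd300lf were also found in transcripts of other genes, most of them outside the family and Cd300ld among them, and 3.76% of those of Cd300c2 were also found in Cd300a. For Cd300a, Cd300lb, Cd300ld and Cd300lg the count was 0. Levels of different members on the CPM scale are counts of 3′ ends and are not divided by transcript length, so they order classes and groups for 1 gene and not genes within a cell.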

How the data were processed

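Single-cell RNA libraries of dissociated spinal cord (Chromium Single Cell 3′ v3.1, per the labels' protocols) were deposited as UMI counts per gene and barcode, made by the authors. The submitters' processing notes name Cell Ranger, Seurat, DESeq2 and mm10 without versions, and whether strand was used is not given in the sources used here. Barcodes with under 500 genes or 1000 UMIs (7127) or over 15% mitochondrial UMIs (4963) were removed with scanpy 1.11.5. So were those with the highest doublet scores (7577), their share set in advance at 0.8% per 1000 barcodes of the library (2.49% to 9.9%). Leiden clusters (26) were named from marker lists, and counts were summed per library and class. All 14 libraries entered 1 edgeR 4.0.16 quasi-likelihood fit per class, with TMM scaling, filterByExpr and Benjamini-Hochberg adjustment over all genes, called at 0.05. The fit was tested on simulated data. DESeq2 1.42.0 was an alternative. SEs were taken as the log2 fold change over the root of F. Intervals are 95%, Poisson for levels and exact binomial for shares.

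The members and gene lists were chosen with earlier results of these data known. Named genes were the members, the 3 genes most correlated with each, up to 4 called genes with the largest change per list, and the nearest tested genes and the 4 with the largest change within 1000 kb. Of the gene IDs, 54587 matched the GENCODE annotation of GRCm38 with their version. Promoters came from RefSeq, for 5 of 6 members. Alternatives covered scaling, filters, clustering, covariates and each library left out, and library totals without TMM were added after seeing the data.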

Additional observations from a re-analysis of the deposited data

How the results depend on the processing

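Results for the members fitted in microglia and for endothelial Cd300lg were recomputed under 23 alternatives, 14 of which left out 1 library. The gene lists were recomputed by library totals only. Endothelial Cd300c2 and the tests in border-associated macrophages were not recomputed. Cd300lf in Clec7a-KO against nTg stayed between -4.03 and -3.82, and Cd300lb and Cd300ld stayed called higher with the transgene in all 23 alternatives. Without SOD1G93A_1, 1 member (Cd300lf) was called between SOD1G93A/Clec7a-KO and SOD1G93A, where the other fits called 0. That library had the lowest Cd300lf of its group, so leaving it out widens this difference, and the call is a description. The fit without SOD1G93A_1 called 13 of 17033 genes in this contrast, against 3 of 16698. Over the libraries left out, Cd300lf ranged from -1.10 to -0.44 in that contrast and from 0.23 to 0.82 for SOD1G93A against nTg, with the far value of each without SOD1G93A_1, and by library totals it read 0.0115 in the latter. By library totals Cd300a read -0.40 for SOD1G93A against nTg and -0.33 for SOD1G93A/Clec7a-KO against Clec7a-KO, Cd300c2 lost its call for SOD1G93A against nTg (0.35), and Cd300lb and Cd300ld read -0.0232 and -0.0791 for SOD1G93A/Clec7a-KO against SOD1G93A. The other changes of sign were of values near 0, and the cause was not tested. With DESeq2 Cd300a read -0.00164 for SOD1G93A against nTg. For SOD1G93A/Clec7a-KO against SOD1G93A, Cd300a read 0.00295 with sex as a covariate, Cd300c2 0.0213 with library number and 0.0288 with sex, and Cd300ld -0.00547 and -0.0359. Leaving out libraries gave -0.0215 to 0.19 for Cd300a in SOD1G93A against nTg, and for SOD1G93A/Clec7a-KO against SOD1G93A -0.0835 to 0.0758 for Cd300a, -0.11 to 0.0447 for Cd300c2 and -0.0959 to 0.13 for Cd300ld. Endothelial Cd300lg gave -0.96 to 0.00371 and -0.18 to 0.65 in these contrasts.

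Replicate numbers did not pair the libraries throughout: same-numbered libraries correlated at -0.09 to 0.02 for SOD1G93A and nTg, -0.16 to 0.22 for SOD1G93A/Clec7a-KO and SOD1G93A, -0.15 to 0.36 for SOD1G93A/Clec7a-KO and Clec7a-KO, and -0.11 to 0.15 for Clec7a-KO and nTg. In some cases, such as replicates 1 and 4 of SOD1G93A/Clec7a-KO and Clec7a-KO (0.36 each), the same-numbered library was the best match, and in others not. Of all microglial genes, 5455 were called for SOD1G93A against nTg and 7743 for SOD1G93A/Clec7a-KO against Clec7a-KO. These became 6235 and 8574 with the replicate block, and 7333 and 9528 with library number. With the replicate block, 3, 0 and 3 members were called as before, Cd300lf read -3.97 for Clec7a-KO against nTg, and Cd300c2 read 0.00046 for SOD1G93A/Clec7a-KO against SOD1G93A. Of all endothelial genes, 138 were called for SOD1G93A against nTg and 116 for SOD1G93A/Clec7a-KO against Clec7a-KO, and these became 34 (first contrast) with sex as a covariate, 179 (second) with the block, 182 (second) with library number, 67 (second) with only the groups compared, 220 and 227 with DESeq2, and 317 and 338 without the filter on low counts. With 1 library left out the first ranged from 54 to 183 (87 without SOD1G93A_1, 67 without SOD1G93A_2, and 74, 59 and 54 without nTg_1, nTg_2 and nTg_3). The second ranged from 57 to 181 (66 without SOD1G93A/Clec7a-KO_2, 66 without SOD1G93A/Clec7a-KO_3, and 181, 57 and 69 without Clec7a-KO_1, Clec7a-KO_2 and Clec7a-KO_3). For SOD1G93A/Clec7a-KO against SOD1G93A, 1 endothelial gene became 3 with DESeq2 and 40 without the filter. Between SOD1G93A/Clec7a-KO and SOD1G93A microglia, 3 genes were called, against 42 with DESeq2, 14 without the filter, 5 with the block, 7 with library number and 13 without SOD1G93A_1. Between Clec7a-KO and nTg microglia, 5 became 10 with DESeq2, 10 without the filter and 8 without nTg_1. The few neutrophils, monocytes and border-associated macrophages limit what could be seen in them.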
